A study of Homo sapiens with 12 samples.

Results

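Actin-binding contractile genes were examined in A549 and H1792 cells. The group holds 10 genes chosen by name: the tropomyosins TPM1, TPM2 and TPM4, the myosin regulatory light chain MYL9, caldesmon CALD1, the filamin FLNA, transgelin TAGLN, smooth muscle actin ACTA2 and the alpha-actinins ACTN1 and ACTN4. All 10 were found by Ensembl identifier among the 20595 genes of the count table. Measured values played no part in the rule that picked them, although earlier results of these data were known when the group was proposed.

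A549 and H1792 are established human lung adenocarcinoma (LUAD) cell lines. Both carry an amplified MDM2 gene, and the series describes A549 as p53 wild type and H1792 as p53 mutant. RG7112, a small molecule of the nutlin family, occupies the pocket of MDM2 that binds p53. Poly-A RNA was sequenced from 4 groups of 3 samples: A549 with DMSO, the solvent, A549 with 1 µM RG7112, H1792 with DMSO, and H1792 with 1 µM RG7112, all after 48 h. Each p53 status is represented by 1 cell line, so that p53 status and whatever else differs between the lines cannot be told apart.

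In non-muscle cells, actin filaments and myosin II form stress fibres that pull on adhesions and drive spreading and migration. Tropomyosins lie along the filament, caldesmon and transgelin bind its side, alpha-actinins and filamin cross-link filaments, and the regulatory light chain switches myosin on when phosphorylated. Many of these genes are known targets of SRF (serum response factor) and its coactivators MRTFA and MRTFB, which bind a promoter sequence called the CArG box. The same genes are widely used as markers of smooth muscle cells and myofibroblasts, ACTA2 and TAGLN most of all.

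Total counts ranged from 2011916 to 6218825 per sample, and levels are given as CPM, counts scaled to a common library size after normalization by the trimmed mean of M-values (TMM). As a check of the drug, CDKN1A and MDM2, both p53 targets, changed in A549 by 3.58 and 2.99 on the log2 scale (edgeR, adjusted p = 0.0252 and 0.0102), against 0.15 and -0.05 in H1792 (adjusted p = 0.882 and 0.928). The 8 epithelial markers summed to between 14488 and 18971 CPM in A549 with DMSO and between 17121 and 24082 CPM with RG7112, where KRT19 was called higher (log2 1.27; edgeR, adjusted p = 0.00602). In H1792, where CDH1 had at most 4 counts, they summed to between 1823 and 2190 CPM with DMSO and between 1072 and 1342 CPM with RG7112, without overlap, and KRT18 was called lower (-1.04; adjusted p = 0.00437). The 8 fibroblast markers summed in H1792 to between 1367 and 1432 CPM with DMSO and between 1123 and 1296 CPM with RG7112, without overlap. Most of it came from COL1A2, a collagen chain, while PDGFRB was called higher with RG7112. In A549 they summed to between 18.7 and 22.5 CPM with DMSO and between 9.53 and 14.7 CPM with RG7112. Between the lines in DMSO, COL1A1, COL1A2 and PDGFRA were called lower in A549 and THY1 higher. Of the 8 smooth muscle markers, DES and CASQ2 were listed at 0 in every sample. Their sum lay between 34.8 and 56.8 CPM in A549 with DMSO and between 50.5 and 113 CPM with RG7112, and in H1792 between 43.6 and 63.8 CPM with DMSO and between 15.8 and 20.7 CPM with RG7112, where SMTN, the one marker tested, was called lower (-1.55; edgeR, adjusted p = 0.00389). The 8 blood and endothelial markers summed in A549 to between 11.5 and 35.6 CPM with DMSO and between 46.2 and 104 CPM with RG7112, without overlap. The 1 marker tested there did not pass (log2 1.61). In H1792 they summed to between 9.23 and 19.2 CPM with DMSO and between 7.23 and 11.2 CPM with RG7112. CD68 passed the test of a difference between the responses (2.18 higher in A549). CD3E and LYZ were at 0 in every sample. The part of these markers in the responses below was not tested. Replicate 3 stood apart from replicates 1 and 2 in both A549 groups, and values without it are given where they matter.

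RefSeq promoter windows from 250 nt before to 50 nt after a transcription start were available for 8 of the 10 genes, 19 windows in all; MYL9 and TAGLN had none. A CArG box with every letter matched was present on either strand in 3 of the 19 windows (FLNA, TPM4 and ACTN1), against 1.29% of all 35116 windows. With at most 1 of its 10 letters changed, a search added after the windows were seen, it was present in 10 of the 19 windows of 6 genes (the same 3, ACTA2, ACTN4 and CALD1), against 18.9% of all windows. A half-site of the p53 motif was present in 4 of the 19 windows, in CALD1 (2 windows), ACTA2 and ACTN4, against 6.63% of all windows. The letters GGAATG, the core bound by TEAD factors, were found on either strand in 4 windows (ACTA2, ACTN1 and CALD1; 14.0% of all), and TATAAA in 2 (ACTN1 and CALD1; 11.5% of all). These are matches of letters within the windows and were not measured as binding.

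FLNA and ACTA2 are shown because their responses to RG7112 differed between the cell lines. For each, the 250 nt before the start are printed from 5′ to 3′ on the minus strand (GRCh38.p14), FLNA at chrX:154374635-154374884 with the CArG box in capitals, 94 nt before the start, and ACTA2 at chr10:88991338-88991587 with the p53 half-site in capitals, 219 nt before the start. A further half-site match of ACTA2, GGGCTTGTCC, lies 19 nt after the start and is not included. The whole ACTA2 window (chr10:88991288-88991587) lies within FAS (chr10:88990582-89015785), a gene on the plus strand. Which of the 2 genes, if either, these half-site matches serve was not tested. The stretches around the CArG boxes of TPM4 (chr19:16067345-16067394, plus strand, 173 nt before the start) and ACTN1 (chr14:68977708-68977757, minus strand, 171 nt before the start) are given for comparison.
FLNA: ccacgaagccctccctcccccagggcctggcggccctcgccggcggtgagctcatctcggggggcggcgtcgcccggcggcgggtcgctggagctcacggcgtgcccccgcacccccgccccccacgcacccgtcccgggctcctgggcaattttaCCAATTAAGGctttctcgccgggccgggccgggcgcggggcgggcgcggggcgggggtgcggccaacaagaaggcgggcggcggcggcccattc
ACTA2: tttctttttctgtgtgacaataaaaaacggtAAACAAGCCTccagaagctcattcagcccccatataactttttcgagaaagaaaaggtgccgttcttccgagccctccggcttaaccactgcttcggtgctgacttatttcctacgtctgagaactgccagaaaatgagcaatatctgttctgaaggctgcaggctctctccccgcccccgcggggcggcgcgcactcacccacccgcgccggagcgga
TPM4: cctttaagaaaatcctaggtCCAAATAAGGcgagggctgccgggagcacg
ACTN1: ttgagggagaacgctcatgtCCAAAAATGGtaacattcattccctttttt
ACTA2 also has a RefSeq start at a second position, whose window (chr10:88952724-88953023) held no p53 half-site and no CArG box with every letter matched. It did hold 2 CArG boxes with 1 letter changed, CCCTATATGG from 121 nt and CCTTGTTTGG from 71 nt before the start. The gene counts do not separate the starts.

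How much of each gene the cells carried was compared first, per length, as CPM per kb of merged exons. In A549 with DMSO, FLNA (142 ± 65.3, SD, n = 3), TPM2 (137 ± 30.6), ACTN1 (132 ± 27.4) and ACTN4 (106 ± 37.3) lay within their spread of each other. TPM1 followed at 75.4 ± 2.74, and it differed from ACTN4 by 0.82 times their joint SD. Then came ACTA2 (29.1 ± 2.67), CALD1 (22.3 ± 2.75), TAGLN (15.8 ± 3.21), MYL9 (9.47 ± 1.28) and TPM4 (0.75 ± 0.43). In H1792 with DMSO, FLNA (332 ± 41.4 CPM per kb) and TPM2 (252 ± 21.6) stood far above ACTN1 (58.5 ± 3.13), ACTN4 (41.4 ± 2.23) and TPM1 (37.9 ± 1.63). ACTN4 and TPM1 differed by 1.28 times their joint SD. TAGLN came last in H1792 at 0.36 ± 0.23 CPM per kb, just below TPM4 at 1.33 ± 1.05. The order depends on the length used: per kb of the longest coding transcript, ACTN1 (370) and TPM2 (320) led in A549 with DMSO, ahead of TPM1 (245) and FLNA (177).

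**Figure D1:**
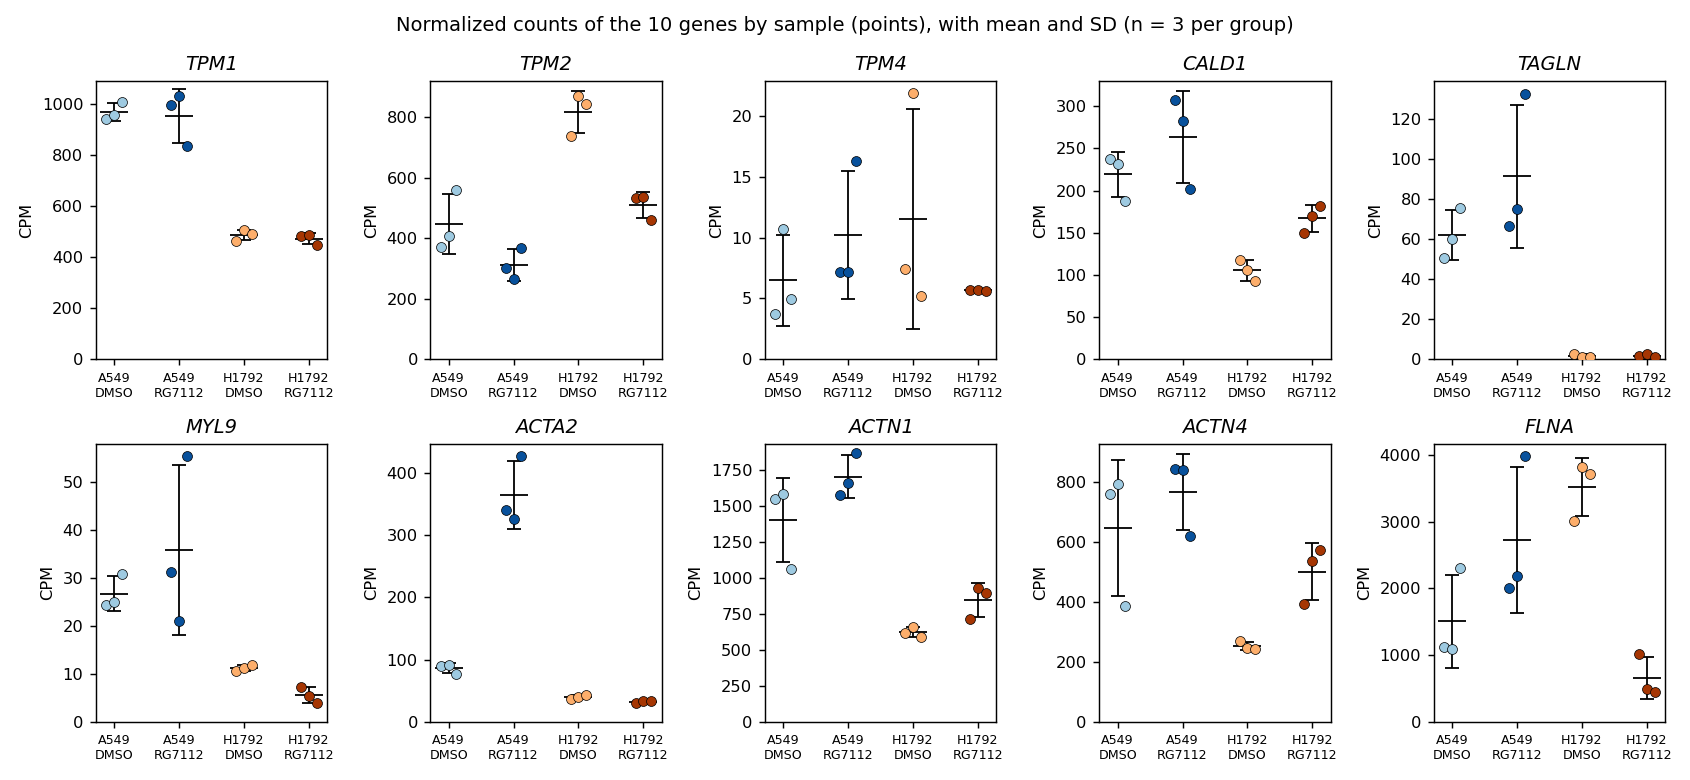
Normalized counts (CPM, linear axes from 0, a separate scale for each gene) of the 10 genes in each of the 12 samples; the bar and whiskers are the mean and SD of 3 replicates. ACTA2 in A549 rises from 77.5 to 92.0 CPM with DMSO to 327 to 427 CPM with RG7112, FLNA in H1792 falls from at least 3015 CPM to at most 1015 CPM, and TAGLN is close to 0 in all H1792 samples.

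The comparison of the cell lines in DMSO asks how the group differs before the inhibitor. A gene was called at an adjusted p under 0.05 (edgeR, Benjamini-Hochberg) and an absolute log2 fold change over 1, and 7 of the 10 genes were called, 6 higher and 1 lower in A549; 34.9% of the 11666 genes tested were called, 20.4% higher and 14.5% lower. By the adjusted p alone 9 genes passed, 7 higher and 2 lower, as did 47.5% of all genes, 25.6% higher and 22.0% lower. The median log2 difference, A549 minus H1792, was 1.10 in the group and 0.09 over all genes tested. In bulk samples, less RNA per cell and fewer cells that carry it cannot be told apart. Values of the cell lines did not overlap for 9 of the 10 genes, as for 58.3% of all genes.

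TAGLN, a calponin-related protein that binds the side of actin filaments, differed most. It measured 50.6, 59.7 and 75.5 CPM in A549 and 2.47, 0.92 and 0.87 CPM in H1792, where it rested on 7, 4 and 2 counts. The levels were 43.5-fold apart (95% CI 21.7 to 87.6; log2 5.44, SE 0.46; edgeR, adjusted p = 3.64e-06).

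FLNA, the filamin that cross-links filaments and ties them to membrane receptors, went the other way. Its 3 samples measured 1119.5, 1090 and 2301 CPM in A549 and 3015, 3825 and 3709 CPM in H1792. All of the A549 samples were lower (log2 difference -1.23, SE 0.39; edgeR, adjusted p = 0.023). Replicate 3 of A549 was the highest of its group: without it in both A549 groups the difference was -1.67, and leaving out 4 of the 5 other DMSO samples singly raised the adjusted p to between 0.054 and 0.0871 (A549 replicates 1 and 2, H1792 replicates 2 and 3).

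The remaining calls were 2.08- to 2.57-fold. ACTN4, an alpha-actinin of stress fibres and the cell edge, measured 762, 796 and 386 CPM in A549 against 268, 246 and 244 CPM in H1792 (log2 difference 1.36, SE 0.25; edgeR, adjusted p = 0.00109). ACTN1, the alpha-actinin of focal adhesions, measured 1548, 1582 and 1063 CPM against 617, 657 and 591 CPM (1.17, SE 0.16). Every A549 sample of both genes lay above every H1792 sample, and replicate 3 was the lowest of A549 in each.

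MYL9, the light chain through which myosin II is switched on, measured 24.4, 24.9 and 30.9 CPM in A549 against 10.6, 11.3 and 11.8 CPM in H1792 (log2 difference 1.25, SE 0.34; edgeR, adjusted p = 0.0103). ACTA2 measured 90.3, 92.0 and 77.5 CPM against 36.3, 39.7 and 42.3 CPM (1.14, SE 0.13). CALD1, which restrains myosin on the filament, measured 238, 231 and 188 CPM against 117, 105 and 92.9 CPM (1.06, SE 0.17). Groups did not overlap for these genes either. CALD1 was at 0.97 without replicate 3 of H1792 with DMSO, under the fold threshold. With a correction for GC content the differences of ACTA2, CALD1 and ACTN1 were 0.91, 0.75 and 0.94, below the fold threshold.

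The tropomyosins divided. TPM1 was higher in A549, with 942, 960 and 1010.0 CPM against 464, 506 and 492 CPM (log2 difference 0.99, SE 0.10; edgeR, adjusted p = 9.56e-06), and TPM2 was lower, with 370, 409 and 558 CPM against 739, 872 and 844 CPM (-0.88, SE 0.17; adjusted p = 0.00123). Both passed the adjusted p but not the fold threshold, and neither overlapped. TPM2 was past the fold threshold without replicate 3 of A549 in both treatments (-1.07) or with DMSO alone (-1.08), and at -1.05 with the GC correction. TPM1 sat at the threshold and was past it in 8 of the 12 fits that left out a sample (1.01 to 1.03). TPM4 measured 3.75, 10.8 and 4.98 CPM in A549 and 7.40, 21.9 and 5.23 CPM in H1792, on as few as 12 counts, and did not pass (-0.83, 95% CI -2.09 to 0.43; adjusted p = 0.258). Of its 31-nt sequences, 25.5% also occur in other genes of GENCODE v29, pseudogenes included, against 31.5% of those of ACTA2, 22.9% of those of TPM1 and 0.94% of those of TPM2. How the counting divided reads among such genes was not tested.

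**Figure D2:**
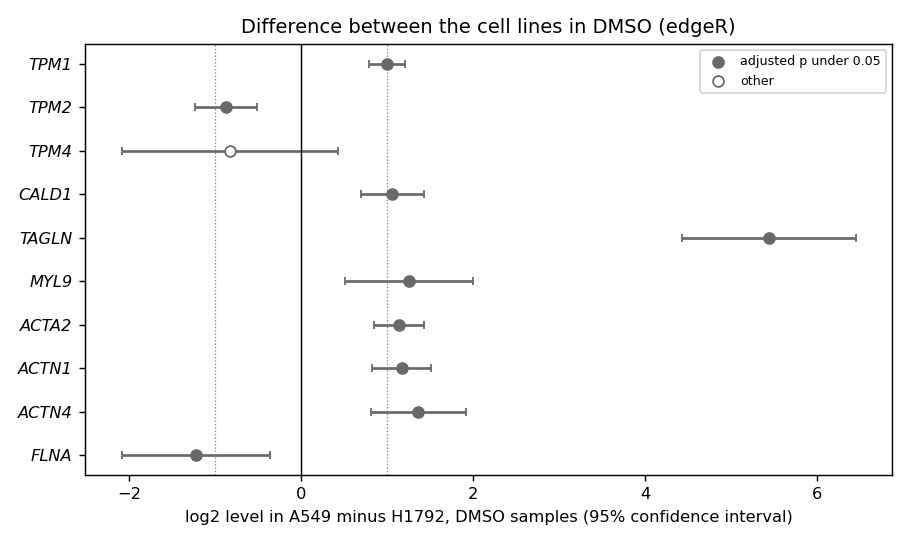
Log2 difference in level between A549 and H1792 in the DMSO samples (edgeR, positive means higher in A549), with 95% confidence intervals; filled points passed an adjusted p of 0.05 and dotted lines mark a log2 difference of 1. TAGLN lies at 5.44, TPM2 (-0.88) and FLNA (-1.23) lie on the H1792 side, and the interval of TPM4 spans 0.

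In A549, RG7112 raised ACTA2 and changed no other gene of the group past the thresholds. The share called was 1 of 10, while 6.19% of the 10739 genes tested were called, 3.18% higher. The same gene alone passed the adjusted p, as did 8.38% of all genes, while TPM2 and CALD1 passed it too once GC content was corrected for. The median log2 fold change was 0.36 in the group and -0.01 over all genes. Treated and untreated samples did not overlap for 2 of the 10 genes, ACTA2 and TPM2, as for 32.4% of all genes.

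ACTA2, the actin isoform of smooth muscle, measured 90.3, 92.0 and 77.5 CPM with DMSO and 340, 327 and 427 CPM with RG7112. All treated samples were higher, by 4.21-fold (95% CI 3.25 to 5.45; log2 2.07, SE 0.16; edgeR, adjusted p = 0.000786). The exact permutation test gave the smallest p that 3 samples against 3 allow, 0.1. Leaving out single samples moved the log2 value between 1.95 and 2.15, and it was 1.88 without replicate 3 of both treatments.

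ACTA2 lies at chr10:88935074-88991339 on the minus strand of GRCh38, where FAS, a death receptor and p53 target, is transcribed from the opposite strand over part of the same exons. Of the 31-nt sequences of ACTA2, 11.8% occur in FAS on the reverse strand and 14.5% in the antisense gene ACTA2-AS1, which the count table given here does not list. FAS, picked for its position after the table was seen, measured 19.8 ± 4.76 CPM (SD, n = 3) with DMSO and 70.3 ± 19.8 CPM with RG7112 in A549 (log2 1.83, SE 0.29; edgeR, adjusted p = 0.0121). In H1792 FAS measured 4.47 ± 0.29 CPM with DMSO and 6.53 ± 1.65 CPM with RG7112, and did not pass (log2 0.63, SE 0.31, edgeR, adjusted p = 0.166). Since the strand setting of the counting is not given, how far reads of FAS or ACTA2-AS1 entered the ACTA2 count was not tested. In A549 the mean level of ACTA2 rose from 86.6 to 365 CPM, and the mean level of FAS with RG7112 was 70.3 CPM. These levels do not bound the reads that the counting may have moved between the genes.

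FLNA measured 1119.5, 1090 and 2301 CPM with DMSO and 1999, 2191 and 3984 CPM with RG7112 in A549. Each treated sample exceeded the DMSO sample of its own number, but replicate 3 with DMSO lay above 2 of the treated samples, so that the groups overlapped. The change of 0.86 on the log2 scale did not pass (SE 0.38, 95% CI -0.04 to 1.75; edgeR, adjusted p = 0.229). Without replicate 3 of both treatments it was 0.93 with an adjusted p of 0.00379, still under the fold threshold, and without that replicate of DMSO or of RG7112 alone it was 1.30 and 0.48.

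TPM2 measured 370, 409 and 558 CPM with DMSO and 301, 266 and 369 CPM with RG7112 in A549. Every treated sample was lower, the highest at 369.1 against a lowest DMSO sample of 369.8 CPM, and the change did not pass (log2 -0.51, SE 0.20; edgeR, adjusted p = 0.171). TAGLN measured 50.6, 59.7 and 75.5 CPM before and 66.5, 74.8 and 132 CPM after (0.56, SE 0.30; adjusted p = 0.316). MYL9 measured 24.4, 24.9 and 30.9 CPM before and 31.2, 21.0 and 55.4 CPM after (0.43, SE 0.36; adjusted p = 0.536). In both TAGLN and MYL9 the highest treated value was replicate 3, and the groups overlapped.

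Treated levels in A549 were 1575, 1657 and 1865 CPM for ACTN1, 844, 841 and 621 CPM for ACTN4, and 307, 282 and 202 CPM for CALD1. Their log2 changes were 0.28, 0.25 and 0.27, with 95% CIs from -0.14 to 0.70, from -0.43 to 0.92 and from -0.18 to 0.71. TPM1, at 999, 1033 and 835 CPM with RG7112, had the narrowest interval of the group, -0.32 to 0.28 around -0.02. TPM4 measured 7.13, 7.15 and 16.3 CPM (0.63, 95% CI -0.63 to 1.89). None of these 5 passed the adjusted p, and all overlapped with DMSO. Intervals as wide as that of TPM4 leave changes over 2-fold within reach.

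In H1792, FLNA fell, ACTN4 rose, and 7 of the 9 genes tested separated treated from untreated samples without overlap. The 2 called genes are read against 14.6% of the 9914 genes tested that were called, 10.3% higher and 4.34% lower, and the 7 against 53.3% of all genes without overlap. Of the 9, 6 passed the adjusted p alone, 3 higher and 3 lower, as did 34.1% of all genes, 17.7% higher and 16.5% lower. The median log2 fold change was -0.22 in the group and 0.01 over all genes tested. All-gene calls split into 1020 higher and 430 lower; by library size alone, which shifts the median of all genes by 0.26, the split was 1541 to 249, and with a correction for GC content it was 563 to 447.

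FLNA measured 3015, 3825 and 3709 CPM with DMSO and 1015, 493 and 444 CPM with RG7112 in H1792. Every treated sample was lower, and the highest of them was replicate 1. The level fell by 2.36 on the log2 scale (SE 0.32, 95% CI -3.14 to -1.59), to 0.19 of the DMSO level (edgeR, adjusted p = 0.00448). Leaving out single samples gave values between -2.83 and -2.16. FLNA made up 57.1% to 61.5% of the summed CPM of the group with DMSO and 14.6% to 30.5% with RG7112.

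ACTN4 measured 268, 246 and 244 CPM with DMSO and 393, 536 and 574 CPM with RG7112. All treated samples were higher, by 2.09-fold (95% CI 1.62 to 2.69; log2 1.06, SE 0.15; edgeR, adjusted p = 0.00497). Its value sat at the fold threshold: it was 0.95 without replicate 3 of RG7112 and 0.99 in a fit over all 12 samples, both under the threshold. ACTN4 shares 12.6% of its 31-nt sequences with CAPN12 on the opposite strand, which measured 0.72 and 0.52 CPM on average in H1792 with DMSO and RG7112.

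ACTN1 and CALD1 also rose, by less than 2-fold. ACTN1 measured 617, 657 and 591 CPM with DMSO and 714, 931 and 891 CPM with RG7112 (log2 0.52, SE 0.11; edgeR, adjusted p = 0.0137). CALD1 measured 117, 105 and 92.9 CPM with DMSO and 150, 169 and 182 CPM with RG7112 (0.74, SE 0.12; adjusted p = 0.00634). Every treated sample of both genes lay above every DMSO sample. The adjusted p of ACTN1 was between 0.0511 and 0.0531 without DMSO replicate 3 or RG7112 replicate 2 or 3. Both alpha-actinins thus rose in H1792 while the other cross-linker of the group, FLNA, fell.

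TPM2 and MYL9 fell by less than 2-fold. TPM2 measured 739, 872 and 844 CPM with DMSO and 534, 537 and 460 CPM with RG7112 (log2 -0.61, SE 0.09; edgeR, adjusted p = 0.00497). MYL9 measured 10.6, 11.3 and 11.8 CPM with DMSO and 7.23, 5.34 and 3.96 CPM with RG7112, on 17 to 49 counts a sample (-0.95, SE 0.30; adjusted p = 0.0477). The groups were apart for both, but the adjusted p of MYL9 was over 0.05 in 5 of the 6 fits that left out a sample (0.0847 to 0.133; all but the one without replicate 1 of RG7112), and 0.071 in DESeq2.

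TPM1 measured 464, 506 and 492 CPM with DMSO and 482, 487 and 450 CPM with RG7112 in H1792, a log2 change of 0.03 with a 95% CI of -0.12 to 0.18. ACTA2, the gene that rose in A549, measured 36.3, 39.7 and 42.3 CPM before and 30.2, 33.3 and 32.6 CPM after. Every treated sample of ACTA2 was lower, but the change of -0.22 did not pass (SE 0.14; edgeR, adjusted p = 0.244). TPM4 measured 5.68, 5.69 and 5.59 CPM with RG7112 against 7.40, 21.9 and 5.23 CPM with DMSO, where replicate 2 stood far above its partners (-0.96, 95% CI -2.22 to 0.30). TAGLN, with 6, 13 and 4 counts after treatment (1.55, 2.31 and 0.93 CPM), was removed by the filter on low counts and was not tested.

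**Figure D3:**
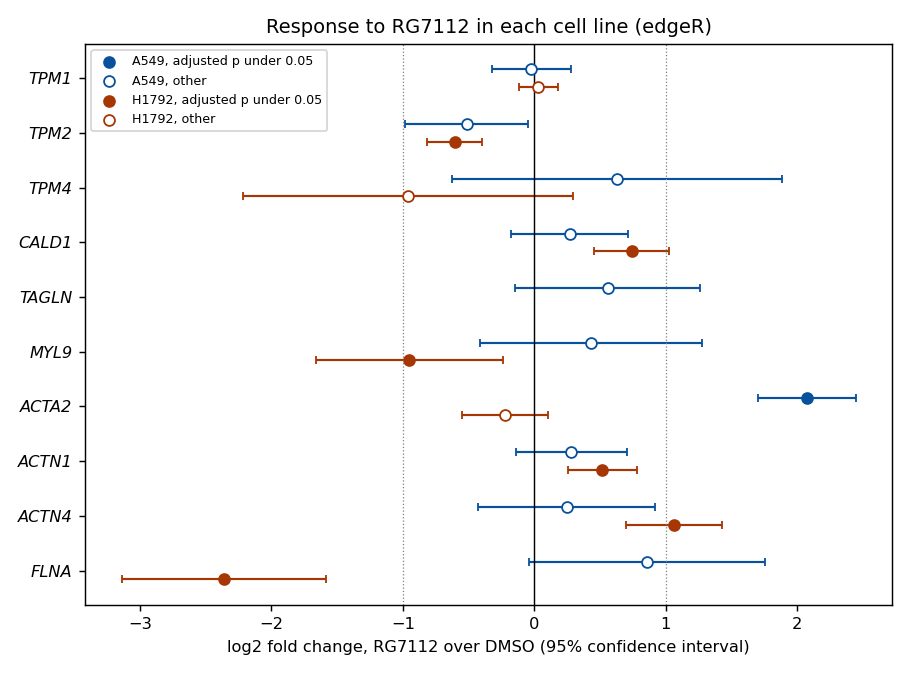
Log2 fold change with RG7112 over DMSO for each gene (points) with its 95% confidence interval (edgeR), A549 in blue and H1792 in brown; filled points passed an adjusted p of 0.05 and dotted lines mark a log2 change of 1. Only ACTA2 (2.07) is filled in A549, while H1792 has 6 filled points from FLNA at -2.36 to ACTN4 at 1.06; TAGLN has no H1792 value.

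GC-rich genes tended to be lower with RG7112 in H1792 (Spearman's rho of GC content and log2 fold change -0.50 across 9165 genes) and higher in A549 (0.26 across 9941 genes). Genes are not independent replicates. The genes of the group run from 41.6% GC in CALD1 and 45.9% in TPM1 to 60.4% in TPM2, 60.5% in MYL9 and 62.3% in FLNA, counted over the longest coding transcript. A correction for GC content was therefore compared for every gene. In H1792 it left FLNA at -1.95 (edgeR, adjusted p = 0.00655), ACTN4 at 1.38 (adjusted p = 0.0059) and ACTN1 at 0.70 (adjusted p = 0.0096).

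CALD1, the most AT-rich gene, dropped from 0.74 to 0.17 (edgeR, adjusted p = 0.186) with that correction, TPM2 moved from -0.61 to -0.24 (adjusted p = 0.0631) and MYL9 from -0.95 to -0.59 (adjusted p = 0.164). TPM1 turned from 0.03 to -0.33 (adjusted p = 0.0274). In A549 the correction moved TPM2 from -0.51 to -0.72 (adjusted p = 0.0299) and CALD1 from 0.27 to 0.48 (adjusted p = 0.0339), so that both passed the adjusted p, under the fold threshold. ACTA2 has a GC content of 51.8%, against a median of 49.8% over the genes tested in A549, and its change there was 2.04 with the correction. The part of GC content in the uncorrected changes was not tested further.

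**Figure D4:**
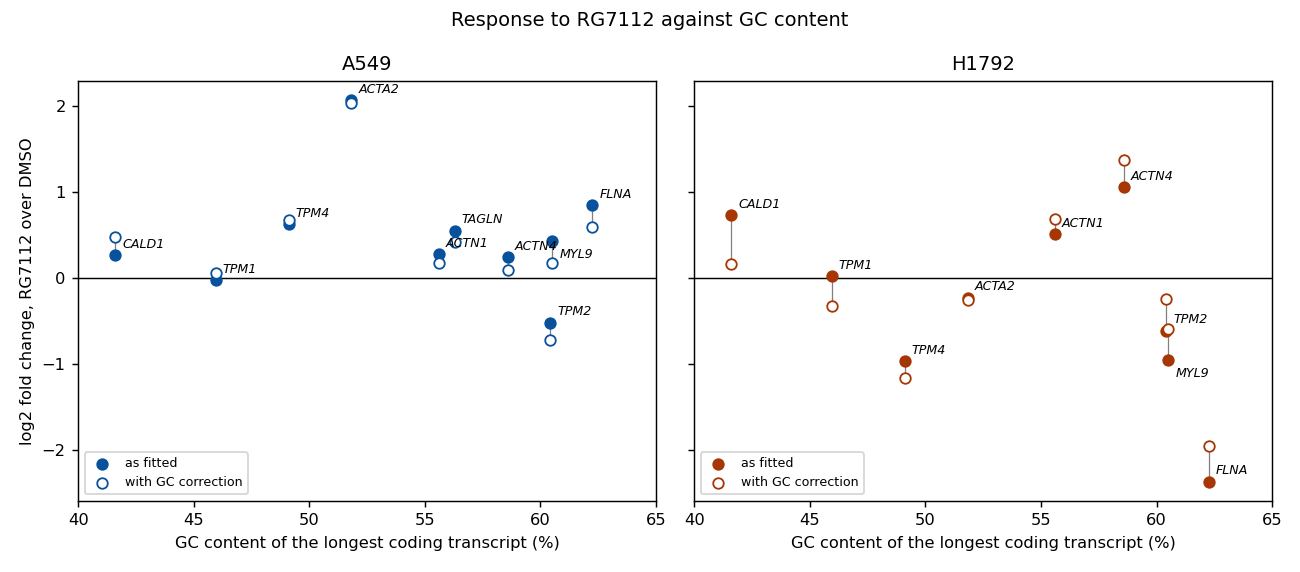
Log2 fold change with RG7112 over DMSO against the GC content of the longest coding transcript in percent, as fitted (filled) and with a correction for GC content (open), joined by a line for each gene. In H1792, CALD1 moves from 0.74 to 0.17 and FLNA from -2.36 to -1.95, whereas ACTA2 in A549 stays near 2.

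Whether the responses of the cell lines differed was tested directly as an interaction over the 12 samples, where a gene passed at an adjusted p under 0.05 whatever its fold. FLNA and ACTA2 passed, 2 of 10, both with the higher response in A549. Of the 11666 genes tested, 21.8% passed, 10.4% with the higher response in A549. The response of FLNA in A549 exceeded that in H1792 by 3.29 on the log2 scale (SE 0.56, 95% CI 2.07 to 4.52; edgeR, adjusted p = 0.00329). For ACTA2 the responses differed by 2.37 (SE 0.19, 95% CI 1.96 to 2.78; adjusted p = 2.22e-05). In no alternative did either lose its call, but none of them changed how reads were assigned to genes.

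MYL9 came nearest among the others, with a difference of 1.46 (SE 0.48; edgeR, adjusted p = 0.0510), which was 1.53 with an adjusted p of 0.0261 in DESeq2. It was 0.84 with the GC correction (adjusted p = 0.162) and 1.00 without RG7112 replicate 3 of A549 (adjusted p = 0.103), and its adjusted p over all alternatives ran from 0.0214 to 0.171. ACTN4 differed by -0.74 (95% CI -1.51 to 0.03; adjusted p = 0.151) and TPM4 by 1.68 (95% CI -0.11 to 3.47; adjusted p = 0.163). ACTN4 passed without replicate 3 of A549 in both treatments (-0.88, adjusted p = 0.0139) or with DMSO alone (-1.01, adjusted p = 0.0121), and with the replicate block and the GC correction (-1.14, adjusted p = 0.0259). TPM1, TPM2, TAGLN, CALD1 and ACTN1 had differences between -0.40 and 0.33 whose intervals all included 0. TPM2 was lower with RG7112 in every sample of both lines, by 0.51 and 0.61, and the difference of 0.17 had an interval from -0.34 to 0.68.

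Added together, the 10 genes made up 5148, 5256 and 5695 CPM in A549 with DMSO and 6471, 6698 and 8509 CPM with RG7112. In H1792 they made up 5278, 6285 and 6034 CPM with DMSO and 3332, 3200 and 3043 CPM with RG7112. The sum was thus higher with RG7112 in every A549 sample and lower in every H1792 sample. Without FLNA, the sums in H1792 were 2263, 2460 and 2325 CPM with DMSO and 2318, 2707 and 2599 CPM with RG7112, which overlap. In A549 the sums without FLNA were 4028, 4166 and 3394 CPM with DMSO and 4471, 4507 and 4524 CPM with RG7112, without overlap.

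The difference between replicates 1 and 2 and replicate 3 of A549 had the same sign in both treatments for 6 of the 10 genes. On the log2 scale, FLNA was lower in replicates 1 and 2 than in replicate 3 by -1.06 with DMSO and -0.93 with RG7112. ACTN4 was higher by 1.01 and 0.44, CALD1 higher by 0.32 and 0.54, TAGLN lower by -0.45 and -0.90, TPM2 lower by -0.52 and -0.38, and MYL9 lower by -0.31 and -1.09. For ACTN1 and ACTA2 it changed sign between treatments, from 0.56 to -0.21 and from 0.23 to -0.36. Among the H1792 samples the same difference of FLNA was -0.13 with DMSO and 0.67 with RG7112.

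Levels of the 10 genes were then set beside each other across the 12 samples, as a description, since samples of a group share cell line and treatment. The deviations from the group means were closest for FLNA and ACTN4, which ran against each other (Pearson's r -0.93), as did FLNA and CALD1 (-0.87) and TPM2 and ACTN4 (-0.86). FLNA ran with TPM2 (0.80) and MYL9 (0.78). ACTN4 ran with CALD1 (0.79). Depth and GC content are shared by all genes of a sample, and the offset of A549 replicate 3 given above enters these deviations. The part of each in these values was not tested.

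Across all genes tested in the 12 samples, the level of ACTA2 was most like those of ZNF385A, CALCOCO1 and ABHD4 (Pearson's r of log2 CPM 0.997, 0.993 and 0.991). TAGLN was most like MEIS3, TRIML2 and WNK2 (0.997, 0.995 and 0.993), and FLNA most like NSDHL, ELOB and LRRC75A (0.974, 0.971 and 0.969). MYL9 was most like ZFTRAF1, NUDT14 and BAX (0.992, 0.984 and 0.981), and ACTN4 most like CA12, RAPGEF2 and NCOR1 (0.989, 0.988 and 0.984). CALD1 was nearest to ROBO1 (0.987), ACTN1 to OTUD5 (0.982) and TPM2 to AURKAIP1 (0.985). For TPM4 the best value was 0.799, with SYS1. The difference between the cell lines dominates these correlations for genes such as TAGLN.

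ACTA2 is itself an actin, and the filaments that the group binds also hold other actins. ACTB, the main non-muscle actin, measured between 13018 and 17570 CPM in A549 with DMSO and between 12195 and 16489 CPM with RG7112 (log2 -0.08; edgeR, adjusted p = 0.842). In H1792 it fell from between 20692 and 22758 CPM to between 15252 and 16743 CPM (-0.39, SE 0.06; adjusted p = 0.00519), and ACTG1, the other non-muscle actin, fell from between 3931 and 4397 CPM to between 2589 and 3100 CPM (-0.50, SE 0.08; adjusted p = 0.00644). Neither reached the fold threshold. ACTA1, ACTC1 and ACTG2, the muscle actins, had at most 5 counts in any A549 sample and 0 in all H1792 samples, so that ACTA2 was the only muscle actin with more.

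Of the paralogs reported here, the tropomyosin TPM3 (log2 0.91, SE 0.11; edgeR, adjusted p = 0.00367) and TAGLN2 (2.86, SE 0.72; adjusted p = 0.0241) were higher in H1792 with RG7112. TAGLN2 passed the fold threshold and TPM3 did not. TAGLN2 went from 10.5, 12.3 and 14.3 CPM to 22.5, 64.7 and 169 CPM, and it was not called without DMSO replicate 1, DMSO replicate 3 or RG7112 replicate 3. In A549 TPM3 (-0.77), TAGLN2 (-0.88) and CNN2 (0.85) were not called, with adjusted p of 0.143, 0.184 and 0.292.

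The myosin II list gave no call in either response, among 7 tested in A549 and 5 in H1792, with median log2 changes of -0.19 and -0.75 (-0.01 and 0.01 over all genes). In H1792, MYL6 and MYL6B, the essential light chains, were lower by -0.75 and -0.80 (SE 0.12 for both; edgeR, adjusted p = 0.00651 and 0.00522) and MYL12A did not pass (0.38, adjusted p = 0.106). In A549 the smallest p belonged to MYH9, MYL6B and MYH10, with log2 changes of -0.94, 0.21 and -0.19 and adjusted p of at least 0.510. Among 8 tested regulators of contraction in H1792 (median log2 change 0.26), 2 were called, both higher, as were 10.3% of all genes: CDC42BPB, a kinase of the myosin light chain pathway (1.58, SE 0.39; adjusted p = 0.0228), and PPP1CB, the catalytic subunit of myosin phosphatase, named after its value was seen (1.32, SE 0.34; adjusted p = 0.0255).

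The targeting subunit of myosin phosphatase, PPP1R12A, rose by 0.95 in H1792 (SE 0.16; edgeR, adjusted p = 0.00715) and the small GTPase RHOC fell by 0.67 on the log2 scale (SE 0.09; adjusted p = 0.00404). RHOC measured 0.64 in A549 (adjusted p = 0.103), and CDC42BPA (0.45) and MYLK (0.70) did not pass there either. No regulator was called in A549 among 9 tested.

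Of 11 tested SRF and MRTF regulators and targets, 4 were called in H1792, 2 in each direction, against 14.6% of all genes, 10.3% higher and 4.34% lower. The list's median log2 change was 0.50, and 0.01 over all genes. MRTFA, the coactivator of SRF, measured 19.2, 19.4 and 31.8 CPM with DMSO and 0.70, 0.71 and 1.55 CPM with RG7112 (log2 -4.49, SE 0.43; edgeR, adjusted p = 0.00278), and no treated sample had more than 6 counts. FHL1, a LIM protein, rose from between 1.76 and 2.62 CPM to between 12.4 and 24.7 CPM (3.23, SE 0.38; adjusted p = 0.00317). The list shares TPM3, FLNC, CNN1 and CNN2 with the paralogs and VCL and ZYX with the scaffold list. SRF, CCN2, ANKRD1 and EGR1 were not analysed here.

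In A549, 1 gene of this list was called, the immediate early gene FOS (log2 -2.27, SE 0.44; edgeR, adjusted p = 0.0236). FHL2 rose by 0.95 without reaching the fold threshold (SE 0.19; adjusted p = 0.0260), and MRTFB did not pass (-1.45, adjusted p = 0.121). MRTFA ranged from 0.94 to 66.0 CPM among the A549 samples with DMSO and up to 74.4 CPM with RG7112.

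The stress fibre and focal adhesion scaffold had the most calls of these lists in H1792, 5 higher and 4 lower of 21 tested, against 10.3% and 4.34% of all genes (median log2 change 0.06). LIMA1, an actin bundler, rose by 1.28 (SE 0.11; edgeR, adjusted p = 0.00272) and ENAH, which extends filaments at adhesions, by 1.35 (SE 0.15; adjusted p = 0.00305). TLN1, which links integrins to actin, measured 33.5, 50.5 and 52.3 CPM with DMSO and 9.08, 9.78 and 11.9 CPM with RG7112 (-2.07, SE 0.23; adjusted p = 0.00307). In A549 none of 21 was called; TNS3 fell by 0.80 on the log2 scale (SE 0.15; adjusted p = 0.0189), and FBLIM1 (0.54) and TRIP6 (1.32) did not pass. With the GC correction the calls of this list in H1792 were 4 in place of 9.

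Of 23 tested genes of actin filament turnover, 5 were called higher and 1 lower in H1792, against 10.3% and 4.34% of all genes (median log2 change 0.58). ACTR2 and ACTR3, the actin-related subunits of the Arp2/3 complex that nucleates branched filaments, rose by 2.27 (SE 0.23; edgeR, adjusted p = 0.00282) and 1.06 (SE 0.14; adjusted p = 0.00397), and PFN2, a profilin, by 0.92 (SE 0.09; adjusted p = 0.00278). EZR, which ties filaments to the membrane, fell from between 169 and 418 CPM to between 12.6 and 38.0 CPM (-3.52, SE 0.49; adjusted p = 0.00458). In A549 none of 22 was called, and GSN, which severs filaments, rose by 0.75 (SE 0.12; adjusted p = 0.0124) without reaching the fold threshold. ARPC1B (0.36) and EZR (0.82) did not pass there.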

How the data were processed

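RNA of 12 samples was measured, 3 for each combination of cell line (A549, H1792) and treatment (the solvent DMSO, or RG7112 at 1 µM over 48 h). Poly-A RNA was selected and second strand synthesis used a directional kit. The authors estimated transcript abundances with kallisto v0.45.0 on Ensembl GRCh38.95, added them up to genes with biomaRt annotation and deposited estimated counts (expected counts) per gene as whole numbers. The strand setting of kallisto is not given in the sources used here. The column names of the table give a dose of 0.1 µM; the dose of the labels was taken.

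R 4.3.3 was used with edgeR 4.0.16, limma 3.58.1 and DESeq2 1.42.0. filterByExpr removed low genes (count minimum 10, total minimum 15), counts were normalized by TMM, and a robust quasi-likelihood model was fitted within each cell line for the responses and over the 12 samples for the differences between cell lines. Calls needed a Benjamini-Hochberg adjusted p under 0.05 over all genes tested and an absolute log2 fold change over 1, except for the interaction, which had no fold threshold. CPM levels use TMM factors over the 12 samples and errors are SDs; CPM per kb divides by the merged exons of GENCODE v29. Single genes were also compared by exact permutation tests of log2(CPM + 1). Nothing in the labels says that replicates came from separate cultures, so that p-values measure the spread between these samples, which may be technical. Between replicates of a group, counts differed by 5.12 to 23.3 times counting noise (chi-square per degree of freedom). The fits were tested on simulated data with less spread than these samples. Only large changes were planted, in genes with ample counts. That test therefore does not cover changes near the fold threshold or genes with few counts.

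The 10 genes and the other lists were chosen with earlier results of these data known. All 10 genes were named in every comparison; of each other list, the up to 3 genes with the smallest p in each response, and every actin with counts, were named, save for a gene that is not reported here. Alternatives covered DESeq2, limma-trend, other size factors, no filter, no fold threshold, a GC correction (loess per sample, span 0.5), the replicate number as a block, other sets of samples and each sample left out in turn. Promoter windows are RefSeq entries on GRCh38.p14, from 250 nt before to 50 nt after a transcription start; 19 windows were found for 8 of the 10 genes.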

Additional observations from a re-analysis of the deposited data

Results flagged for a closer look

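The response of FLNA to RG7112, A549 minus H1792, was 3.29 on the log2 scale, and its interaction test passed (edgeR, adjusted p = 0.00329). The 3 treated H1792 samples were all below the DMSO samples, while in A549 the groups overlapped and the change of 0.86 did not pass (adjusted p = 0.229). The response of ACTA2 differed by 2.37 (adjusted p = 2.22e-05). All treated A549 samples were above and all treated H1792 samples below the DMSO samples of their line. The H1792 change of -0.22 did not pass (edgeR, adjusted p = 0.244). Groups did not overlap for 32.4% of all genes in A549 and 53.3% in H1792. FLNA and ACTA2 were picked out because the effects of RG7112 differed between the cell lines. With the correction for GC content the difference of FLNA was 2.62. What sets the lines apart was not tested.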

How the results depend on the processing

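Depth limited TPM4, MYL9 and TAGLN most, with at most 95, 49 and 13 counts in a sample of H1792, and 3 samples against 3 limited every exact permutation test to a p of at least 0.1. ACTA2 in A549 and FLNA in H1792 kept their calls under every alternative run, and so did the interactions of both. All alternatives started from the same gene counts. They therefore did not test the sequences that ACTA2 shares with FAS and ACTA2-AS1.

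In A549, 665 genes were called, and leaving out single samples gave 310 to 526; 1 gene of the group was called in each of these. In H1792, 1450 were called, with 920 to 1642 when single samples were left out and 1 to 3 in the group. There, the replicate block with the GC correction gave 494 genes, no fold threshold gave 3384 genes and 6 of the group, and a fit over 12 samples called 1 of the group. The interaction called 2539 genes, 1551 with the replicate block and the GC correction, and 1584 to 2978 with single samples left out (2 to 3 in the group). Lower counts when a sample is left out come with fewer samples; the cause of the other changes was not tested.

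With single samples left out, calls in H1792 ran from 0 to 3 for the paralogs, 0 to 1 for myosin II, 0 to 2 for the contraction regulators, 3 to 5 for the SRF and MRTF list, 7 to 9 for the scaffold and 2 to 6 for filament turnover, and in A549 from 0 to 2 for the paralogs and the SRF and MRTF list, 0 to 1 for the contraction regulators and 0 for the others. ACTN1 in H1792 had an adjusted p of 0.0607 in the fit over 12 samples.

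In H1792, same-numbered DMSO and RG7112 samples had correlations of their deviations of -0.04, -0.02 and -0.00, and differing numbers from -0.03 to 0.04. No shared variation by replicate number was thus seen there, which does not show whether same-numbered samples were handled together. In A549 the same-numbered values were 0.14, 0.07 and 0.29. Replicate 3 of A549 had -0.23 to -0.14 with replicates 1 and 2 of the other treatment. Replicates 1 and 2 had 0.14 and 0.11 with each other across treatments. In A549, replicate 3 thus went with replicate 3, while numbers 1 and 2 were not told apart. With the replicate block, FLNA in A549 had an adjusted p of 0.00986 (edgeR), MYL9 in H1792 one of 0.113.

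Directions turned only for changes that had not passed. In A549, TPM1 (-0.02) was 0.068 with the GC correction, 0.071 with the block too, 0.10 without replicate 3 of both treatments, and -0.078 to 0.071 with single samples left out; TPM4 was -0.056 without replicate 3 of both treatments; ACTN4 ran from -0.017 to 0.42 and MYL9 from -0.016 to 0.69 with single samples left out. In H1792, ACTA2 was 0.039 by library size alone, and TPM1 was -0.33 with the GC correction, with or without the block, -0.044 in the fit over 12 samples and -0.00048 to 0.059 with single samples left out. Between the lines in DMSO, TPM4 ran from -1.40 to 0.052. For the interaction, TPM1 was -0.37 by library size alone, -0.065 with no filter and -0.076 to 0.11 with single samples left out; TPM2 was -0.23 by library size alone, -0.41 with the GC correction and -0.39 with the block too; TAGLN was -0.082, -0.035 and -0.12 in the same order and -0.28 to 0.69 with single samples left out; CALD1 was 0.29 with the GC correction, with or without the block. Library size alone shifts the interaction's median over all genes by -0.39. Between the lines in DMSO, TPM1 passed the fold threshold with DESeq2 or RLE size factors (1.00), by library size alone (1.25), with no filter (1.06) and with only the 6 DMSO samples (1.04), and by library size alone FLNA was at -0.99. In H1792 by library size alone, CALD1 was at 1.00, past the fold threshold, and TPM1 at 0.29 passed the adjusted p (0.00967).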
